A study of Mus musculus with 140 samples.

Results

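The comparison covers glomeruli and post-capillary venules of the same 8 sham-operated mice, 4 sampled at 24 h and 4 at 72 h after the operation. Its 16 small RNA libraries, 8 per compartment, were chosen by their labels from 140 libraries of 28 mice, and the glomeruli and venules of a mouse were matched by the mouse number in the sample titles. The mice were male, wild-type and of the C57BL6/OlaHsd strain, as were all others in the study. Every mouse gave tissue from 4 kinds of renal microvessel by laser microdissection, and a whole kidney piece that was not dissected. The other mice were healthy, sham-operated and sampled at 4 h, or had cecal ligation and puncture (CLP), which opens the gut into the abdomen and causes sepsis. The sham mice served as operated controls without sepsis; the sources used here do not give the amount of tissue captured for each library.

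MicroRNAs (miRNAs) are short RNAs that guide Argonaute proteins to messenger RNAs, mostly by pairing of the seed, bases 2 to 8 from the 5′ end, and lower the output of those messengers. Many are cut from a hairpin with a 5p and a 3p arm, several hairpins can lie in a cluster on a shared primary transcript, and relatives with the same seed can lie in different clusters. A glomerulus is a tuft of fenestrated capillaries held by mesangial cells and wrapped by podocytes, and it filters the blood. Post-capillary venules drain the capillaries around the tubules, have thin walls, and are the main site where leukocytes leave the blood.

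The mature sequences of the miRNAs on which the differences turn are given here as RefSeq lists them (GRCm38.p6), 5′ to 3′, with the seed in capitals. The first set was higher in glomeruli, and shows members of the miR-23/27/24 clusters, both arms of miR-322, relatives that share a seed with miR-322-5p or miR-351-5p, and miRNAs of endothelium, podocytes and kidney.
miR-23a-3p: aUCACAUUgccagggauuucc
miR-27b-3p: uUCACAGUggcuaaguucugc
miR-24-3p: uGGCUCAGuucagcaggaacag
miR-322-5p: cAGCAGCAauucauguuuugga
miR-497a-5p: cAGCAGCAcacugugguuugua
miR-322-3p: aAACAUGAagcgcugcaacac
miR-351-5p: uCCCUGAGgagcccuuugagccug
miR-125a-5p: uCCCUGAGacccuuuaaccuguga
miR-126a-3p: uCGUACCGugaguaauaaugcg
miR-30a-5p: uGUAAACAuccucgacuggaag
miR-204-5p: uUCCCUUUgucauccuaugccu

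The second set was lower in glomeruli than in venules. It is shown because miR-125b-5p carries the seed of miR-351-5p and miR-125a-5p, because miR-99a-5p and miR-100-5p differ at a single base, because miR-21a-5p is known from kidney injury, and because the remaining miRNAs mark red blood cells or epithelium.
miR-125b-5p: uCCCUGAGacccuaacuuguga
miR-99a-5p: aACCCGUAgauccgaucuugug
miR-100-5p: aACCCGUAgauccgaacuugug
miR-451a: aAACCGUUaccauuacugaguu
miR-144-3p: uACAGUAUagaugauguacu
miR-21a-5p: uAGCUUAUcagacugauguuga
miR-200a-3p: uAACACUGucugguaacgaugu
miR-200b-3p: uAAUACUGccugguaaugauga
miR-429-3p: uAAUACUGucugguaaugccgu
miR-192-5p: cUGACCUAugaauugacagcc

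The libraries differed in miRNA counts with the compartment. Glomeruli libraries held 218540 to 1352025 miRNA counts (median 535292) and venule libraries 15148 to 567040 (median 156109), and the glomeruli library was the deeper in 8 of 8 mice (exact sign-flip permutation test, two-sided p = 0.0078, the smallest that 8 mice allow). The venule library of mouse 2 at 72 h stood apart: it held 15148 counts, of which 25.3% were miR-6240, against at most 0.111% in the other venule libraries. A miRNA absent from that library could still hold up to 302 CPM (TMM-scaled counts per 1e+06 miRNA counts), the level of 3 counts, which is a limit of counting error only. In the same library miR-2137 also stood apart, at 145108 CPM against 155 to 793 CPM in the other venule libraries. The part of depth in the differences was not tested. Without the 2 mice that had a library under 1e+05 miRNA counts 133 of 292 miRNAs tested passed the threshold, and 121 of the 130 that passed with all mice were among them.

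Of 1474 miRNAs in the table, 766 had a count in these 16 libraries and 273 passed the filter on low counts. The 273 held 99.6% of the miRNA counts. With edgeR's quasi-likelihood test and the mouse as a block, 130 of the 273 (47.6%) differed between glomeruli and venules at an adjusted p under 0.05: 70 (25.6%) were higher and 60 (22%) lower in glomeruli. The 10 most abundant miRNAs took 45.8% of miRNA counts in glomeruli and 38.1% in venules, where miR-6240 was among them through the library of mouse 2 at 72 h. Without that library let-7i-5p took its place and the share was 39.9%. All log2 differences below are glomeruli minus venules, with levels in CPM after TMM scaling to miRNA counts, and p-values are edgeR's, adjusted over the 273, unless another test is named.

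The median difference over the 273 was 0.11 on the log2 scale. In 54 (19.8%) the 8 glomeruli libraries lay wholly above or below the 8 venule libraries, and all 54 were among the 130. Of the 130, 92 went the same way in 8 of 8 mice and 33 in 7 of 8. The values are relative to the miRNA pool: when libraries were scaled to the counts of the entries named with #, whose content the sources used here do not give and whose share was lower in glomeruli in 8 of 8 mice, the median difference was 1.37 and the split became 147 higher and 4 lower. In bulk samples such as these, fewer cells of a type and less RNA per cell cannot be told apart.

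**Figure D1:**
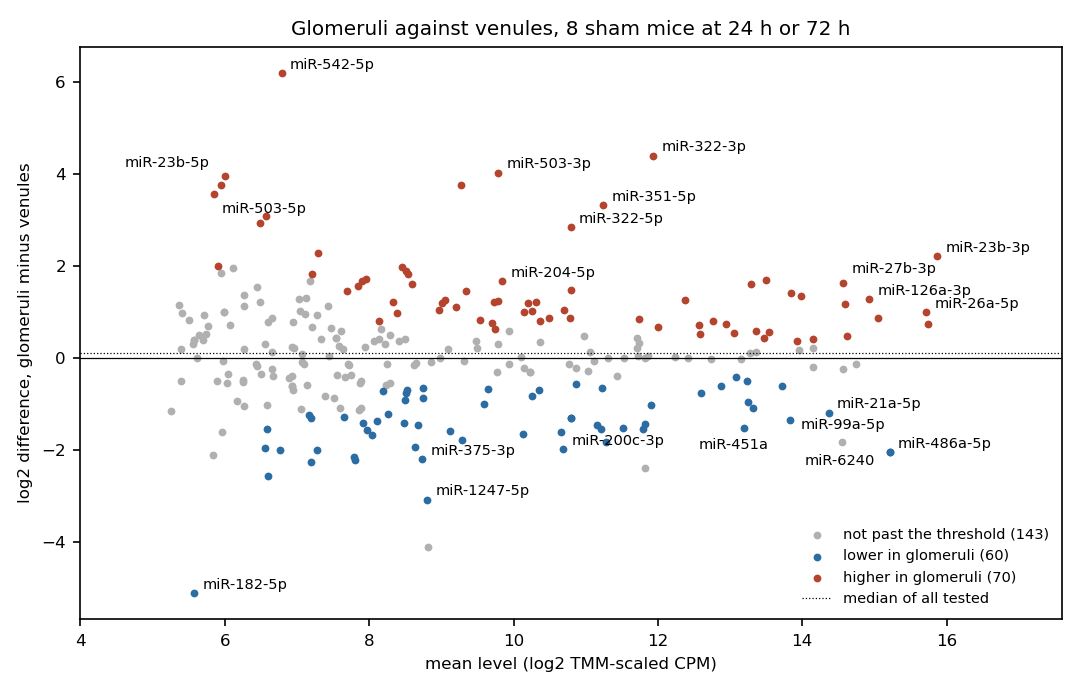
The log2 difference between glomeruli and venules (vertical axis) is plotted against the mean level in log2 CPM (horizontal axis) for the 273 miRNAs tested, red for the 70 higher and blue for the 60 lower in glomeruli. miR-23b-3p combined a high level with a difference of 2.22, and the members of the miR-322 cluster reached 6.21.

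miR-23b-3p, which is studied in endothelial cells and angiogenesis together with its cluster partners miR-27b and miR-24, differed with the smallest p. It ranged from 78523 to 113530 CPM (median 98962) in glomeruli and from 16961 to 27414 CPM (median 20817) in venules. The compartments did not overlap, and the log2 difference was 2.22 ± 0.10 (SE, adjusted p = 1.69e-10). In glomeruli it was the most abundant miRNA, with 9.50% ± 0.90 (SD, n = 8) of miRNA counts, against 2.25% ± 0.52 (SD, n = 8) in venules.

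Other products of the miR-23/27/24 clusters were higher as well, except miR-27a-5p and miR-27b-5p, which did not pass. miR-27b-3p ranged from 32972 to 43075 CPM (median 34192) in glomeruli and from 9193 to 13655 CPM (median 11862) in venules, a difference of 1.62 ± 0.10 (SE, adjusted p = 5.92e-09). For miR-24-3p, which both clusters encode, the values were from 14759.8 to 24314 CPM (median 16432) and from 3689 to 7478 CPM (median 5288), a difference of 1.69 ± 0.15 (SE, adjusted p = 1.88e-07). No library of one compartment reached the other in either case. From the cluster on chromosome 8, miR-23a-3p was higher by 1.41 ± 0.13 (SE, adjusted p = 1.88e-07) and miR-27a-3p by 1.49 ± 0.18 (SE, adjusted p = 6.99e-06), both in 8 of 8 mice. miR-27a-3p and miR-27b-3p share a seed and differ by the substitution C19U, counted from the 5′ end of miR-27a-3p, so that reads of the pair can be confused. The minor arm miR-23b-5p, with 490 counts in glomeruli and 15 in venules, was higher by 3.97 ± 0.94 (SE, adjusted p = 0.00274), and miR-23a-5p, with 689 and 43 counts, by 2.95 ± 0.87 (SE, adjusted p = 0.00999). Both arms reached the level of the low-count filter in 8 glomeruli libraries, but miR-23b-5p in 1 and miR-23a-5p in 3 venule libraries. They passed the filter through glomeruli, so their direction is in part fixed by it.

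miR-126, encoded within the endothelial gene Egfl7 and required for vascular integrity in the mouse, was higher in glomeruli on both arms. miR-126a-3p ranged from 35886 to 51875 CPM (median 42432) in glomeruli and from 14888 to 26812 CPM (median 17339) in venules, a difference of 1.27 ± 0.11 (SE, adjusted p = 1.88e-07). miR-126a-5p ranged from 12038 to 17534 CPM (median 15209) and from 3572 to 8806 CPM (median 4683), a difference of 1.60 ± 0.13 (SE, adjusted p = 8.99e-08). Neither arm overlapped between the compartments. The pair miR-221 and miR-222, known to lower Kit in endothelial cells, went the other way: miR-221-3p was lower in glomeruli at -0.76 (adjusted p = 0.00364) and miR-222-3p at -1.02 (adjusted p = 0.000358), in 8 of 8 mice each, with libraries of the compartments that overlapped. Of 17 members of the endothelial list 15 were tested, since counts over lists cover only members that passed the filter on low counts. The list joins miR-126, the miR-23/27/24 clusters and miR-221/222. Of the 15, 10 were higher, 2 lower and 3 did not pass, with a median of 1.56, while over all 273 tested 25.6% were higher and 22% lower. The 10 include miR-23a-5p and miR-23b-5p, which passed the filter through glomeruli.

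Of 13 miRNAs listed for the cluster on the X chromosome (chrX:53047997-53054349, GRCm38.p6, minus strand), which encodes miR-322, miR-503, miR-351 and miR-542, 8 were tested and these 8 were higher in glomeruli, against 25.6% of all 273 tested. Of the 8, 5 reached the level of the low-count filter (36.9 CPM before TMM scaling) in all 8 glomeruli libraries but not in all venule libraries, so they passed it through glomeruli, and the count over the cluster is in part fixed by the filter. The other 3, miR-322-3p, miR-322-5p and miR-351-5p, reached it in all 16 libraries. miR-322 is the mouse counterpart of human miR-424, and it and miR-503 are known to slow the cell cycle. miR-322-3p ranged from 5704 to 9971 CPM (median 7469) in glomeruli and from 151 to 809 CPM (median 368) in venules, so that the lowest glomeruli library lay above the highest venule library by a wide margin. Its difference was 4.41 ± 0.25 (SE, adjusted p = 1.44e-09). The other arm, miR-322-5p, which carries the seed of the miR-15/16 family, ranged from 2469 to 3657 CPM (median 3066) and from 158 to 708 CPM (median 454), a difference of 2.85 ± 0.21 (SE, adjusted p = 4.37e-08).

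miR-351-5p, which shares its seed with miR-125, ranged from 3446 to 5742 CPM (median 4207) in glomeruli and from 196 to 938 CPM (median 352) in venules, a difference of 3.32 ± 0.27 (SE, adjusted p = 8.99e-08). miR-503-3p ranged from 1268 to 1924 CPM (median 1577) and from 0 to 503 CPM (median 144), a difference of 4.04 ± 0.77 (SE, adjusted p = 0.00271). Both were without overlap. The remaining 4 members had fewer counts: miR-351-3p was higher by 3.78, miR-542-3p by 3.77 and miR-503-5p by 3.57. Venule libraries without a count numbered 5 of 8 for miR-542-3p, 4 of 8 for miR-503-5p and 2 of 8 for miR-503-3p. The difference of miR-542-5p, 6.21 ± 1.07 (SE, adjusted p = 0.000243), rested on 898 counts in glomeruli and 15 in venules, and 7 of 8 venule libraries were without a count of it. In all, the cluster took 1.53% to 1.95% of miRNA counts in glomeruli and 0.09% to 0.27% in venules.

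**Figure D2:**
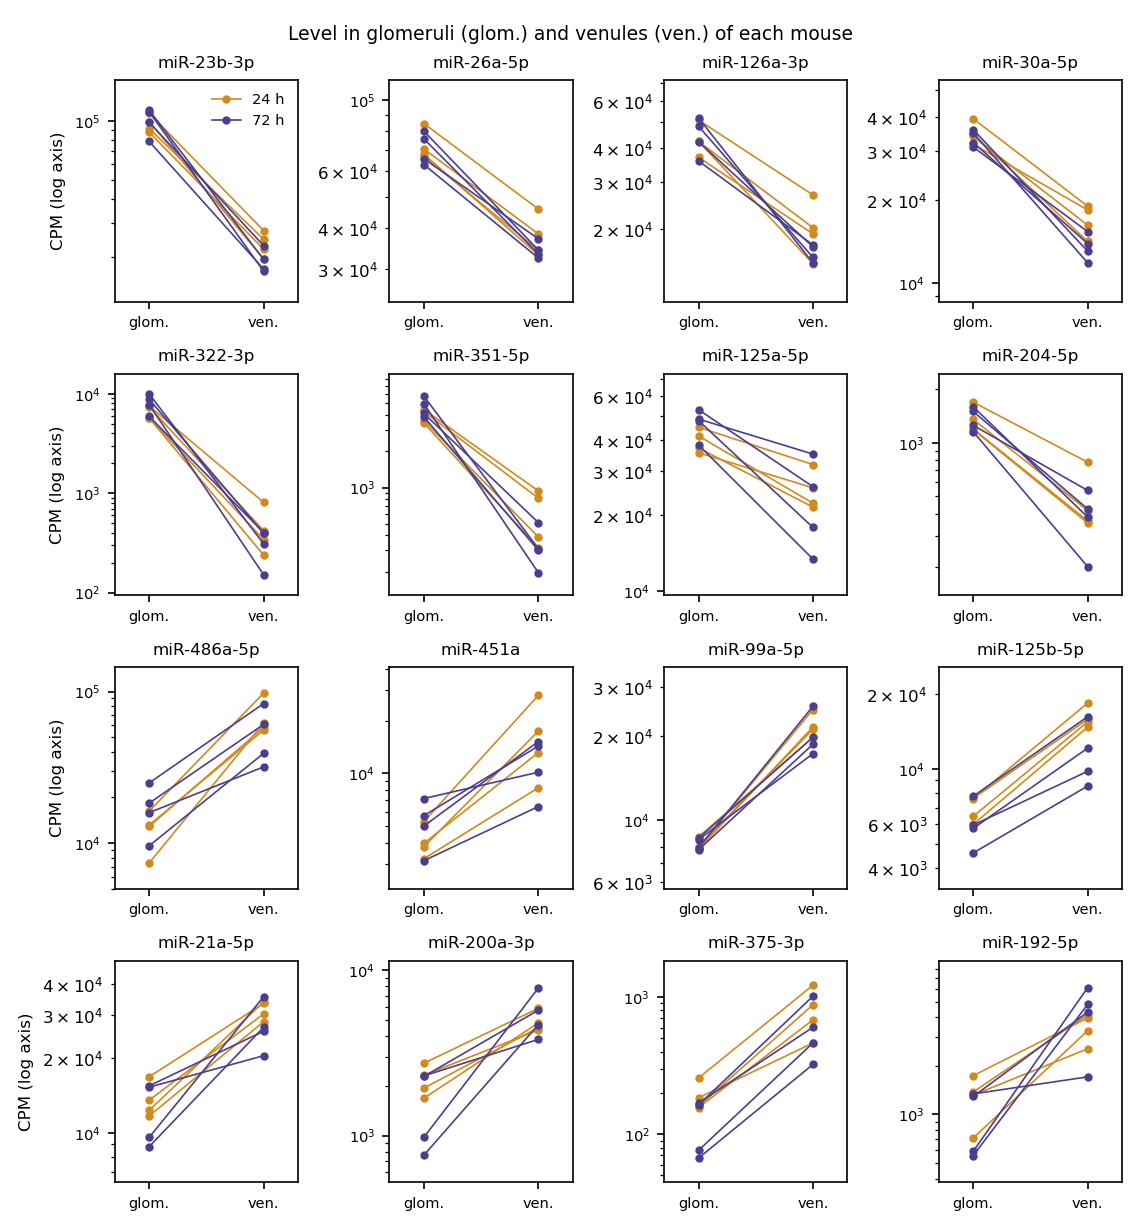
Levels in CPM (vertical axis, log scale) are shown for 16 miRNAs in glomeruli and venules, with a line for each mouse, orange for 24 h and violet for 72 h. Lines of the first 8 panels fall from glomeruli to venules in every mouse and those of the last 8 rise, with miR-322-3p falling from a median of 7469 to 368 CPM.

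The miR-30 family, which is abundant in podocytes and needed for their differentiation, was split. miR-30a-5p, its most abundant member here, ranged from 31102 to 39362 CPM (median 34258) in glomeruli and from 11869 to 19010 CPM (median 14779) in venules, without overlap, and was higher by 1.18 ± 0.10 (SE, adjusted p = 1.88e-07). The opposite arm miR-30a-3p was higher by 1.27 ± 0.15 (SE, adjusted p = 4.89e-06), miR-30c-2-3p by 1.19 ± 0.19 (SE, adjusted p = 0.000138) and miR-30d-5p by 0.74 ± 0.15 (SE, adjusted p = 0.0011), each in 8 of 8 mice. miR-30b-5p was higher by 0.62, a call lost without mouse 2 at 24 h (0.48, adjusted p = 0.076) and without mouse 3 at 24 h (0.55, adjusted p = 0.0694).

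miR-30e, which has the same seed as miR-30a and lies on another chromosome, was lower in glomeruli on both arms. miR-30e-5p ranged from 565 to 1012 CPM (median 915) in glomeruli and from 804 to 2247 CPM (median 1607) in venules, a difference of -0.82 ± 0.20 (SE, adjusted p = 0.00356), and was lower in 7 of 8 mice. miR-30e-3p was lower in 8 of 8 mice, at -0.69 ± 0.19 (SE, adjusted p = 0.00698). The libraries of the compartments overlapped for both. Of 11 members of the family 10 were tested, of which 5 were higher, 2 lower and 3 did not pass, and miR-30c-5p, which 2 hairpins encode, differed by 0.024 (adjusted p = 0.902). Among all 273 tested, 25.6% were higher and 22% lower. The summed miR-30 share, the podocyte marker list, was 5.47% to 6.18% in glomeruli and 2.16% to 4.31% in venules, higher in glomeruli in 8 of 8 mice. The sum is weighted by the abundant miR-30a-5p, while the members of the list were split as given.

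The miR-99/100/125 relatives, whose members lower mTOR (miR-99 and miR-100) and Lin28 (miR-125), were split as well. The cluster on chromosome 17 (chr17:17830194-17830879, plus strand) encodes miR-99b, let-7e and miR-125a. miR-125a-5p ranged from 35564 to 52844 CPM (median 43238) in glomeruli and from 13374 to 35122 CPM (median 24048) in venules, a difference of 0.88 ± 0.13 (SE, adjusted p = 4.82e-05), without overlap. From the same cluster let-7e-5p was higher by 1.01 ± 0.21 (SE, adjusted p = 0.00116), miR-99b-3p by 1.21 ± 0.29 (SE, adjusted p = 0.0032) and miR-125a-3p by 1.04 ± 0.25 (SE, adjusted p = 0.00274), each in 8 of 8 mice, and miR-99b-5p differed by 0.44 (adjusted p = 0.0615).

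The copies on chromosomes 16 and 9, miR-99a, miR-100 and miR-125b, were lower in glomeruli. miR-99a-5p ranged from 7818 to 8694 CPM (median 7995) in glomeruli and from 17296 to 25581 CPM (median 20485) in venules, a difference of -1.36 ± 0.11 (SE, adjusted p = 8.89e-08). Its 8 glomeruli values lay close together, and none reached the venule range. miR-125b-5p ranged from 4596 to 7777 CPM (median 6217) and from 8548 to 18445 CPM (median 15131), a difference of -1.08 ± 0.11 (SE, adjusted p = 9.85e-07), again without overlap. miR-125b-5p and miR-125a-5p share their first 13 bases.

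miR-100-5p ranged from 950.0 to 1614 CPM (median 1182) in glomeruli and from 2413 to 4759 CPM (median 3458) in venules, a difference of -1.54 ± 0.20 (SE, adjusted p = 1.15e-05), without overlap. It differs from miR-99a-5p by U16A, counted from the 5′ end of miR-99a-5p, and reads of the pair may have been shared. let-7c, whose hairpin Mirlet7c-1 lies beside Mir99a and which a second hairpin also encodes, was higher in glomeruli by 0.57 ± 0.13 (SE, adjusted p = 0.00271). Of the 11 relatives 9 were tested, of which 3 were higher, 4 lower and 2 did not pass. Over all 273 tested 25.6% were higher and 22% lower. The call of miR-125b-2-3p, lower at -1.29, was lost without mouse 3 (adjusted p = 0.0747) or mouse 4 at 24 h and without mouse 1 or mouse 3 at 72 h.

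**Figure D3:**
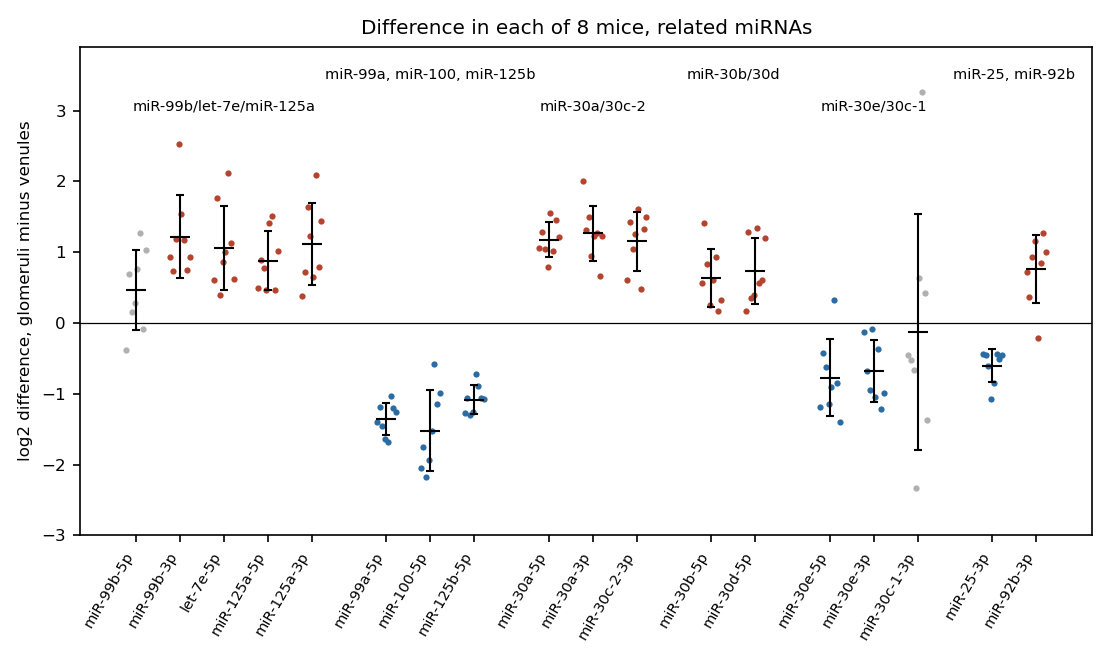
Points are the log2 differences (vertical axis) of each of 8 mice for related miRNAs, with the mean and SD in black, red for miRNAs higher, blue for lower and grey for those not past the threshold. miR-30a-5p lies above 0 and miR-30e-5p mostly below it, and miR-125a-5p lies above 0 in every mouse and miR-125b-5p below it.

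Of 4 tested miRNAs of the miR-143/miR-145 cluster, known from smooth muscle and pericytes, 3 were higher in glomeruli, against 25.6% of all 273 tested. miR-145a-5p ranged from 17442 to 27248 CPM (median 23110.3) in glomeruli and from 5023 to 13269 CPM (median 9523) in venules, a difference of 1.34 ± 0.15 (SE, adjusted p = 2.41e-06), without overlap. miR-143-3p, its cluster partner, ranged from 47843 to 111411 CPM (median 69768) and from 24113 to 62681 CPM (median 42567), a difference of 0.75 ± 0.19 (SE, adjusted p = 0.00698), and its libraries overlapped. miR-145a-3p was higher by 1.00 (adjusted p = 0.000666), while miR-143-5p, at 0.58 (adjusted p = 0.101), did not pass.

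miR-26a-5p, a broadly expressed repressor of the chromatin enzyme gene Ezh2, ranged from 62998 to 84391 CPM (median 69117) in glomeruli and from 32359 to 45880.3 CPM (median 34227) in venules. The compartments did not overlap, and the difference was 0.99 ± 0.081 (SE, adjusted p = 8.99e-08). Its relative miR-26b-5p, with the same seed, was higher by 0.54 ± 0.13 (SE, adjusted p = 0.00295), in 8 of 8 mice. miR-204-5p, which lies in an intron of Trpm3 and is enriched in kidney and eye, ranged from 1154 to 1691 CPM (median 1303) in glomeruli and from 201 to 777 CPM (median 399) in venules, a difference of 1.68 ± 0.20 (SE, adjusted p = 5.65e-06), without overlap.

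Several families were higher in part, to be read beside the 47.6% that passed over all 273 tested (25.6% higher, 22% lower). Of 21 let-7 miRNAs 13 were tested, of which 6 were higher and 0 lower: let-7a-5p by 0.88 (adjusted p = 0.00208), let-7i-5p by 0.49 (adjusted p = 0.0021), let-7e-5p and let-7c-5p as above, let-7b-5p by 0.52 and let-7f-5p by 0.42. These let-7 miRNAs are near-identical and reads may have been shared among them, and the call of let-7f-5p was lost without mouse 2 at 24 h (adjusted p = 0.0854) and without mouse 3 at 24 h (adjusted p = 0.0507). In the miR-181 family, known from lymphocytes and endothelium, miR-181c-5p was higher by 1.25 ± 0.25 (SE, adjusted p = 0.000877) and miR-181d-5p by 0.80 ± 0.20 (SE, adjusted p = 0.0038), both from chromosome 8. miR-181a-2-3p, an opposite arm, was higher by 1.60 ± 0.59 (SE, adjusted p = 0.0396), a call lost without mouse 1 at 24 h (adjusted p = 0.0886), mouse 4 at 24 h (adjusted p = 0.0903) or mouse 4 at 72 h (adjusted p = 0.111). Of 6 tested members these 3 were higher and 0 lower, and miR-181a-5p, with the seed of miR-181c-5p and from other loci, differed by 0.22 and did not pass. miR-29c-3p, of the family that lowers collagen messengers, was higher by 0.72 ± 0.12 (SE, adjusted p = 0.000188).

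The miRNAs that were lower in glomeruli began with those of red blood cells. miR-486a-5p ranged from 7389 to 24939 CPM (median 14522) in glomeruli and from 31834 to 97727 CPM (median 59411) in venules, a difference of -2.05 ± 0.18 (SE, adjusted p = 1.04e-06), without overlap. miR-486b-5p gave nearly the same values (-2.05), so the pair may not be separate measurements, and it is uncertain which copy was read. In venules miR-486a-5p took 6.48% ± 2.51 (SD, n = 8) of miRNA counts, against 1.42% ± 0.51 (SD, n = 8) in glomeruli.

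miR-451a, which erythroid cells make without Dicer, ranged from 3148 to 7168 CPM (median 4469) in glomeruli and from 6448 to 28101 CPM (median 13762) in venules. It was lower in glomeruli in 8 of 8 mice although the libraries overlapped, with a difference of -1.53 ± 0.18 (SE, adjusted p = 5.47e-06). miR-144-3p, from the same erythroid cluster, ranged from 268 to 917 CPM (median 499) and from 1004 to 2797 CPM (median 1599), a difference of -1.65 ± 0.23 (SE, adjusted p = 2.51e-05), and miR-144-5p was lower at -1.93 ± 0.32 (SE, adjusted p = 0.000157) in 7 of 8 mice. Of 7 members of the erythroid list 6 were tested and these 6 were lower in glomeruli, against 22% of all 273 tested. The 6 include miR-486a-5p and miR-486b-5p, which gave nearly the same values. With both of them in the sum, the list took 1.91% to 5.37% of miRNA counts in glomeruli and 5.91% to 22.3% in venules. The part of red blood cells in the other differences was not tested.

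The miR-200 family, which represses Zeb1 and Zeb2 and marks epithelium, was lower in glomeruli in 6 of 7 tested members of 10 listed, against 22% of all 273 tested. miR-200a-5p did not pass at -1.11 (adjusted p = 0.273). miR-200a-3p ranged from 761 to 2742 CPM (median 2111) in glomeruli and from 3821 to 7811 CPM (median 4746) in venules, a difference of -1.55 ± 0.24 (SE, adjusted p = 0.000114). miR-200b-3p ranged from 402 to 1924 CPM (median 1438) and from 2117 to 4912 CPM (median 3274), a difference of -1.46 ± 0.31 (SE, adjusted p = 0.00185). Neither overlapped between the compartments. miR-429-3p was lower at -1.45 ± 0.28 (SE, adjusted p = 0.000901), miR-200c-3p at -1.98 ± 0.37 (SE, adjusted p = 0.000836) and miR-141-3p at -2.22 ± 0.50 (SE, adjusted p = 0.00192), each in 8 of 8 mice.

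Of 3 tested miRNAs of the tubular list 2, miR-192-5p and miR-194-5p, were lower in glomeruli, against 22% of all 273 tested. The third, miR-194-2-3p, did not pass (-1.13, adjusted p = 0.104). miR-204-5p, also known from tubules, was higher, as given above. miR-192-5p, abundant in renal tubules, ranged from 556 to 1739 CPM (median 1305) in glomeruli and from 1709.5 to 6096 CPM (median 4051) in venules, with a difference of -1.83 ± 0.31 (SE, adjusted p = 0.000379), lower in 8 of 8 mice with libraries that overlapped. Its cluster relative miR-194-5p was lower at -2.28 ± 0.55 (SE, adjusted p = 0.0032). miR-375-3p, known from pancreatic islets and some epithelial cells, ranged from 66.9 to 257 CPM (median 162) and from 323 to 1224 CPM (median 643), a difference of -2.20 ± 0.26 (SE, adjusted p = 4.34e-06), without overlap. miR-203-3p, known from skin epithelium, was lower at -1.61 ± 0.25 (SE, adjusted p = 0.000101), in 8 of 8 mice, and miR-205-5p of stratified epithelium did not pass (-4.11, adjusted p = 0.0827). miR-182-5p was lower at -5.12 ± 1.07 (SE, adjusted p = 0.00116), on 32 counts in glomeruli and 163 in venules. It reached the level of the low-count filter in 1 glomeruli and 7 venule libraries, so its direction is in part fixed by the filter. The tubular list, with all 7 miRNAs listed, took 0.06% to 0.20% of miRNA counts in glomeruli and 0.17% to 0.88% in venules, and the miR-200 list 0.22% to 0.93% and 0.84% to 2.94%. How much tubular epithelium the venule libraries held was not tested.

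miR-21a-5p, which rises in kidney injury and fibrosis, ranged from 8816 to 16868 CPM (median 12959) in glomeruli and from 20514 to 35487 CPM (median 29186) in venules, a difference of -1.19 ± 0.14 (SE, adjusted p = 6.08e-06), without overlap. Of the fibroblast and mesenchymal miRNAs, miR-199a-3p was lower at -1.30 ± 0.27 (SE, adjusted p = 0.00116) in 7 of 8 mice. Its copy miR-199b-3p gave nearly the same values (-1.30), so the pair may not be separate measurements. miR-214-3p did not pass (-0.38, adjusted p = 0.144). Among leukocyte miRNAs, miR-142a-3p, made in all blood cell lineages, was lower at -1.38 ± 0.34 (SE, adjusted p = 0.00324) in 7 of 8 mice. Its other arm miR-142a-5p was lower at -1.30 (adjusted p = 0.0218) in 8 of 8 mice, a call lost without mouse 3 at 24 h (adjusted p = 0.0554). The myeloid miR-223-3p differed by -0.38 (adjusted p = 0.483) and the lymphocyte miR-150-5p by -0.14 (adjusted p = 0.609), and neither passed. Of the miR-146 relatives, which dampen inflammatory signalling, miR-146b-5p was higher by 1.72 ± 0.37 (SE, adjusted p = 0.00138), and miR-146a-5p, with the same seed, differed by -0.29 (adjusted p = 0.252). miR-132-3p, which endothelial and nerve cells induce on growth factor signals, was higher by 1.04 ± 0.19 (SE, adjusted p = 0.000379), in 8 of 8 mice without overlap. miR-155-5p, listed with these for inflammation, went the other way, at -1.54 ± 0.55 (SE, adjusted p = 0.0302) in 7 of 8 mice. Its call was lost without mouse 2, mouse 3 or mouse 4 at 24 h and without mouse 4 at 72 h. It reached the level of the low-count filter in 4 glomeruli and 7 venule libraries.

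Of the remaining miRNAs with large differences, miR-1247-5p was lower at -3.08 ± 0.69 (SE, adjusted p = 0.00324) in 7 of 8 mice, miR-185-5p at -2.58 ± 0.85 (SE, adjusted p = 0.02) in 8 of 8, and miR-5106 at -2.16 ± 0.62 (SE, adjusted p = 0.00829) in 7 of 8. miR-185-5p reached the level of the low-count filter in 4 glomeruli and 8 venule libraries, so its direction is in part fixed by the filter. Without mouse 2 at 72 h the difference of miR-5106 was -1.69 (adjusted p = 0.0472), and miR-6240, which did not pass with all mice (-1.84, adjusted p = 0.179), passed at -1.32 (adjusted p = 0.00658). miR-107-3p was lower at -0.97 ± 0.16 (SE, adjusted p = 0.0002) in 8 of 8 mice and miR-103-3p differed by -0.14 (adjusted p = 0.229); they differ by G22C, counted from the 5′ end of miR-103-3p. miR-16-5p, among the 10 most abundant in venules, did not pass (-0.23, adjusted p = 0.065). Hepatocyte miR-122-5p had 1 count in all 16 libraries.

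**Figure D4:**
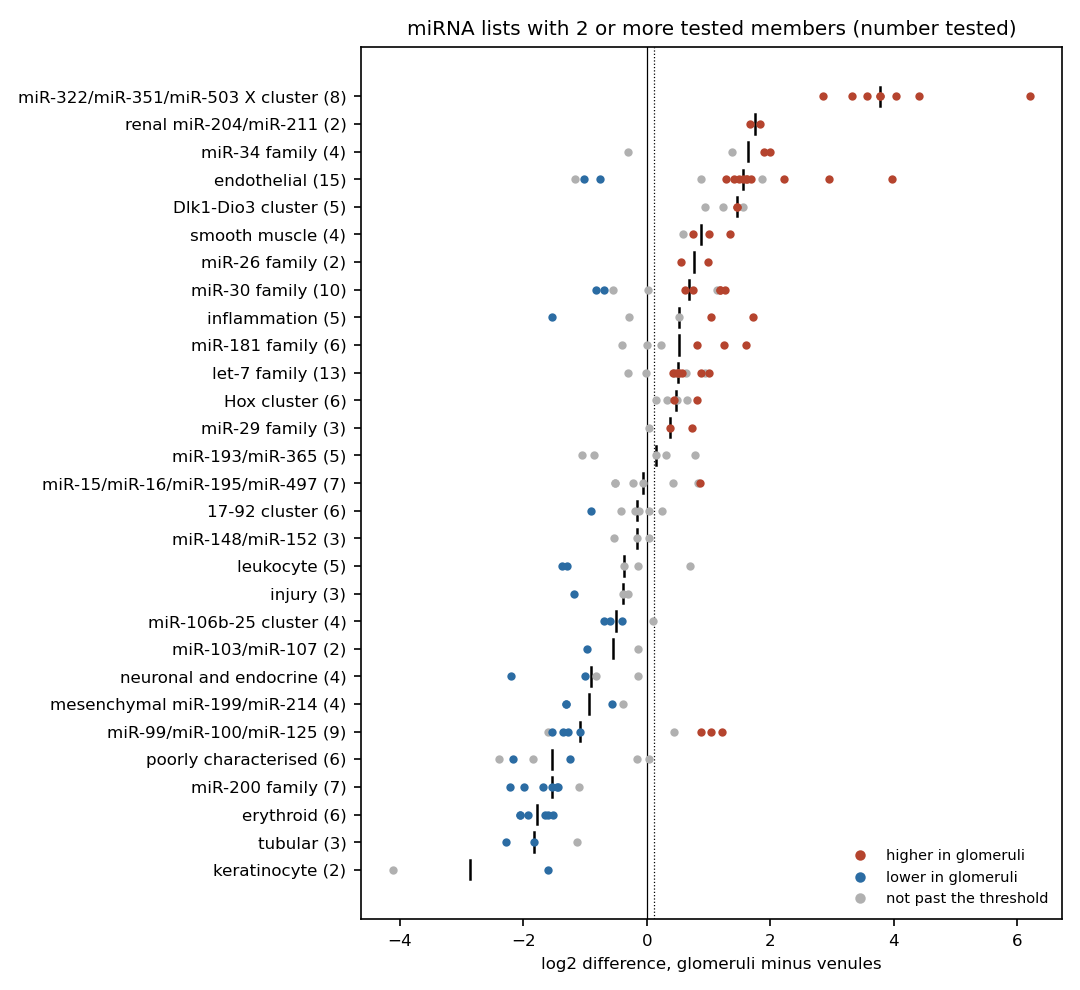
Each point is a tested miRNA at its log2 difference (horizontal axis), by list, with black bars at the list medians and the dotted line at the median of all 273 tested (0.11). The miR-322/351/503 cluster lies at the top and the erythroid, miR-200 and tubular lists near the bottom (medians -1.79, -1.55 and -1.83).

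In 58 hairpins both arms were tested. Both arms passed in 23 of them, and in all 23 the arms differed in the same direction, while 1 arm passed in 14 and none in 21. Among the 23, miR-23a, miR-23b, miR-338, miR-503 and miR-542 had at least 1 arm at the filter level in 8 glomeruli and at most 4 venule libraries. The lower arm miR-874-5p reached it in 2 glomeruli and 8 venule libraries. For such arms the direction is in part fixed by the filter. Hairpins within 10000 bases of each other formed 33 clusters in which at least 2 hairpins had a tested miRNA. In 17 of these at least 2 miRNAs passed, in 7 all of those were higher, in 9 all were lower, and 1, Mir99a with Mirlet7c-1, held both directions.

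Relatives with a shared seed went together in part. Of 32 seeds shared by 2 or more tested miRNAs, 15 had at least 2 that passed. In 6 of the 15 the members that passed were all higher, in 5 all lower, and in 4 they went both ways. The divided seeds were CCCUGAG (miR-351-5p and miR-125a-5p higher, miR-125b-5p lower), GUAAACA (miR-30a-5p higher, miR-30e-5p lower), UUUCAGU (miR-30a-3p higher, miR-30e-3p lower) and AUUGCAC (miR-92b-3p higher by 0.76, adjusted p = 0.0077, miR-25-3p lower at -0.60, adjusted p = 0.000757). Mature sequences were at hand for 236 of the 273 tested miRNAs.

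The difference between compartments was also set side by side at the 2 sham times. No miRNA of 273 changed its difference between 24 h and 72 h in edgeR's test of the interaction (0%, with 27 at an unadjusted p under 0.05 and a smallest adjusted p of 0.251). DESeq2 called 1, miR-193a-3p, whose difference fell by 4.22 on the log2 scale from 24 h to 72 h (adjusted p = 0.0338). miR-23b-3p differed by 2.06 ± 0.13 at 24 h and 2.39 ± 0.14 at 72 h, and miR-322-3p by 3.98 ± 0.29 at 24 h and 4.89 ± 0.32 at 72 h. For miR-486b-5p, with the second smallest p, the differences were -2.48 ± 0.19 at 24 h and -1.62 ± 0.18 at 72 h, and for miR-744-5p, with the smallest, -0.49 ± 0.32 at 24 h and 1.16 ± 0.34 at 72 h. With 4 mice at each time, changes of this size did not pass the threshold.

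The same comparison was made in mice that share no library with the late sham mice, in a fit over 56 libraries with edgeR's p adjusted over 263 miRNAs. In 8 healthy and 4 h sham mice 119 of 263 miRNAs (45.2%) passed, 63 higher and 56 lower in glomeruli. Of the 130 that passed in late sham mice 129 could be tested there, 126 had the same sign, 95 passed in the same direction and 0 in the opposite one. In 8 CLP mice at 24 h and 72 h the count was also 119, with 57 higher and 62 lower, and of the 129 there 128 had the same sign, 97 passed in the same direction and 0 in the opposite one.

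miR-23b-3p differed by 2.11 ± 0.11 in healthy and 4 h sham mice and by 2.15 ± 0.11 in CLP mice. For miR-322-3p the values were 3.61 ± 0.31 and 4.12 ± 0.31, for miR-125a-5p 1.05 ± 0.12 and 1.07 ± 0.12, and for miR-125b-5p -1.06 ± 0.17 and -1.06 ± 0.17. These values had the direction seen in late sham mice. miR-486a-5p differed by -2.25 ± 0.24 and -1.67 ± 0.23, and miR-375-3p by -2.08 ± 0.38 and -3.04 ± 0.37. miR-30e-5p passed in CLP mice (-1.09 ± 0.31, adjusted p = 0.00393) and not in healthy and 4 h sham mice (-0.50 ± 0.34, adjusted p = 0.215).

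The difference of the differences was tested over the 56 glomeruli and venule libraries of all 28 mice. None of 263 miRNAs differed in this respect between late sham mice and healthy and 4 h sham mice with edgeR (0%, 17 at an unadjusted p under 0.05) or DESeq2 (0). The smallest adjusted p was 0.0813, for miR-320-3p. This test crosses 2 sets of libraries that differ in the style of their column names, and the set and the time cannot be told apart. Between late sham and late CLP mice none of 263 passed with edgeR (0%, 15 at an unadjusted p under 0.05) or DESeq2 (0), and the smallest adjusted p was 0.674.

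**Figure D5:**
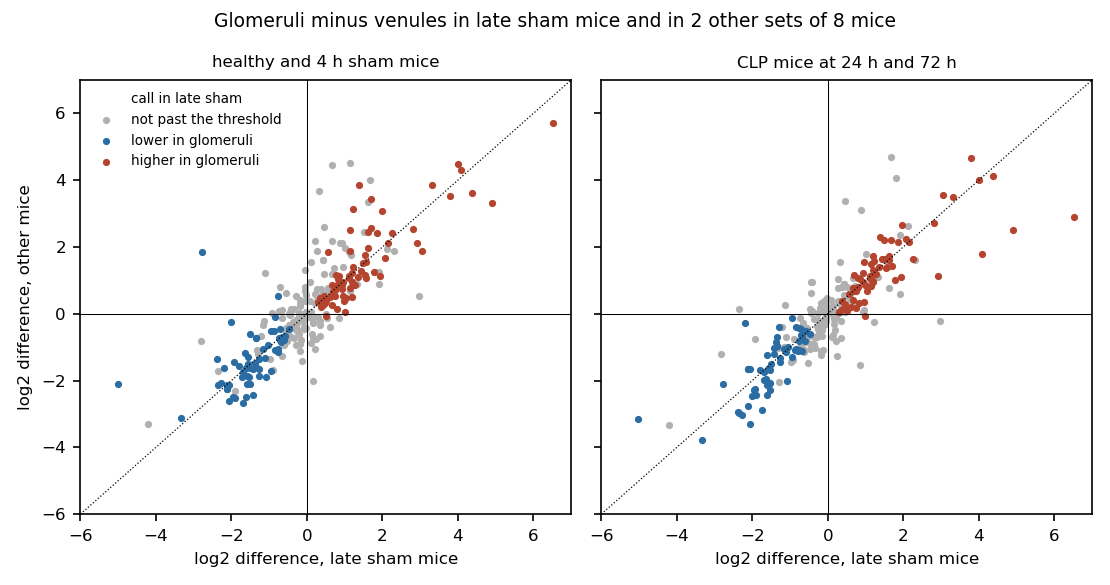
The log2 difference between glomeruli and venules in late sham mice (horizontal axis) is plotted against that in healthy and 4 h sham mice (left) and in CLP mice at 24 h and 72 h (right), coloured by the call in late sham mice, with a dotted line of equal values. Of the 129 called miRNAs 126 and 128 have the same sign on both axes.

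On a common scale with the other samples of the same 8 mice, the order of the compartments differed between miRNAs. miR-322-3p had a median of 6868 CPM in glomeruli, 339 in venules, 368 in arterioles, 558 in peritubular capillaries and 737 in whole kidney. miR-143-3p reached 693781 CPM in arterioles, against 64152 in glomeruli and 39141 in venules. miR-126a-3p had 42709 CPM in arterioles and 39017 in glomeruli. Thus glomeruli held the highest median of miR-322-3p but not of miR-143-3p or miR-126a-3p.

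miR-486a-5p had a median of 54629.5 CPM in venules and between 3664 (whole kidney) and 13353 (glomeruli) in the other samples. For miR-125b-5p the medians were 21464 CPM in arterioles, 13914 in venules, 5788 in peritubular capillaries and 5717 in glomeruli. miR-200a-3p had 8622 CPM in whole kidney, 5303 in peritubular capillaries, 4364 in venules, 1941 in glomeruli and 489 in arterioles. These medians over 8 mice are given as a description, without a test.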

How the data were processed

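Libraries were prepared with a RealSeq kit according to the labels' protocols. The deposited table holds unnormalized read counts, 1 whole number for each mature miRNA in each library. The submitters' processing notes name the tools cutadapt 3.3, Bowtie 1.3.0, FastQC 0.11.9 and MultiQC 1.10 and the builds GRCm39 and GRCm38.p6. The sources used here give neither the counting tool nor how reads that fit several miRNAs were counted, so near-identical miRNAs are uncertain. No molecular identifiers are named, so limits cover counting error only. Entries named with # (47.3% to 75.2% of all counts in glomeruli and 65.1% to 91.6% in venules) entered neither library sizes nor tests.

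Groups and mice were taken from the labels. Counts were tested with edgeR 4.0.16 in R 4.3.3 (TMM, filterByExpr with minimum count 10 and minimum total 15, robust quasi-likelihood F test, mouse as a block, two-sided, Benjamini-Hochberg over all miRNAs tested, threshold 0.05). CPM are TMM-scaled counts per 1e+06 miRNA counts, and differences within a mouse use a prior count of 2. Standard errors are the size of the log2 difference divided by the square root of F. The script was tested on simulated data.

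The pairing comes from the design: the compartments compared are from the same animals. Deviations of a mouse's 2 libraries from their group means correlated between -0.0935 and 0.121.

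Named miRNAs were the 12 higher and 12 lower with the smallest p, the 8 of each with the largest difference, the 10 most abundant in each compartment, and members of 33 lists. Members and lists were chosen with earlier results of these data known; a few further miRNAs, such as miR-92b-3p, were named for a seed they share. Alternatives were RLE, library totals and # scalings, DESeq2 1.42.0, no filter or a minimum count of 50, no block, a shared spread, and fits without a mouse, a time, or the mice with a library under 1e+05 counts. Added after the data were seen were the recentred scalings and DESeq2 for the tests against other mice.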

Additional observations from a re-analysis of the deposited data

Results flagged for a closer look

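Of 50 values checked, 5 had a mouse far from the other 7. The values share the same mice, and their number was not tested against chance. For miR-542-5p the log2 difference of mouse 3 at 24 h was 1.04, below the others. For miR-143-3p that of mouse 4 at 72 h was 2.21, above the others. The remaining 3 belong to mouse 2 at 72 h, whose venule library had 15148 miRNA counts: its differences were 4.03 for miR-1247-5p and 1.25 for let-7i-5p, both above the others, and -9.97 for miR-6240, below them. Without that mouse miR-1247-5p differed by -3.26 (edgeR adjusted p = 0.00113).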

How the results depend on the processing

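The count of 130 (70 higher, 60 lower) stayed within 1.5 times under RLE (132), library totals (116), DESeq2 (144), no filter (122 of 766), a minimum count of 50 (114), no replicate block (136, of which 126 were among the 130), the spread of all 56 libraries (123) and fits that each left out a mouse (114 to 133). Scaling to the # entries gave 147 higher and 4 lower, with the median difference moved by 1.26, and library totals and no replicate block moved it by -0.13 and -0.14. With the # scaling recentred, 81 passed (45 higher, 36 lower), all among the 130. The 24 h mice alone gave 98 and the 72 h mice alone 81, with 32 lower; these fits had 4 mice each. For the change between times DESeq2 gave 1 call against 0, and for late sham against late CLP the fit with no replicate block gave 1, miR-6240 (-4.25, adjusted p = 0.04999), against 0. No other call of these 2 tests appeared without the block. Of 99 miRNAs named or listed, 96 passed, 46 of them under every alternative that gave a value, 50 were lost under at least 1, and 0 reversed. Depth limits venule values most: 3 counts equal 4.36 to 302 CPM (TMM-scaled) there and 2.22 to 13.7 CPM in glomeruli.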
